A study of Homo sapiens with 6 samples.

Results

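Intergenic long noncoding RNAs were taken here as the genes that carry the symbol LINC and 5 digits, which leaves out those with other names. The table held 212 rows with such a symbol among its 15024 genes. Those with a mean scaled read count of at least 10 over the 6 libraries were taken as members, which gave 168 genes. The other 44 lay below that mean. A scaled read count is the number of reads of a gene divided by a size factor of its library, so that libraries of unequal depth can be compared. The rule used the mean over both populations and not the difference between them. No value in the table was 0, so a gene with no read in 1 of the libraries could not be among the members.

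The cells were MDA-MB-231, a much-used line from a human breast cancer without hormone receptors or raised HER2. All 6 libraries were MLL3-null: they came from cells with a deletion of KMT2C, the gene of the histone methyltransferase MLL3. All had been kept for 14 days with forskolin at 10 µM, which stimulates adenylyl cyclase. They were then sorted into CD44-positive cells with high surface CD104, the integrin beta-4 protein (CD104high, n = 3), and CD44-positive cells with low or no CD104 (CD104low, n = 3). The labels do not say whether the deleted line was 1 clone or several, and neither cells with intact MLL3 nor cells without forskolin were analysed here. The comparison asks how the transcripts of the sorted populations differ.

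Long noncoding RNAs are transcribed by RNA polymerase II, and most are capped, spliced and polyadenylated like messenger RNAs but are not known to encode a long protein. They are usually present at lower levels and in fewer tissues than messenger RNAs, and the nuclear exosome degrades many of them soon after transcription. Some act in cis on a neighbouring gene, some serve as hosts of microRNAs, and some start at a promoter shared with a protein-coding gene read in the opposite direction. In breast cancer cells several have been studied as regulators of growth and invasion, although most LINC symbols mark genes with no known role.

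The CD104high libraries held 53878182 to 60069719 reads on the listed genes and the CD104low libraries 49791498 to 54969422. ITGB4, the gene of CD104, was at 16463 ± 2616 (SD, n = 3) in CD104high and 1699 ± 503 in CD104low. KMT2C had reads in both populations, at 3816 ± 221 and 2507 ± 371. The labels do not say which stretch of the gene was deleted, so this level does not check the deletion. Of the markers of other cell types, LAPTM5 and CD14 of the leukocyte list of 6 and PDGFRB and LUM of the fibroblast list of 4 were higher in CD104high, by 1.15, 0.91, 1.07 and 1.61 on the log2 scale. Summed, the 2 leukocyte genes in the table ranged over 679.2 to 935.8 in CD104high and 319.8 to 404.4 in CD104low, and the 4 fibroblast genes over 1874 to 3096 and 907.9 to 1435. The defining fibroblast genes PDGFRA and DCN had group means of 3.14 to 5.09, and the endothelial gene PECAM1 had 5.82 and 9.90. The other 4 leukocyte genes, which include PTPRC, and the erythroid genes were not analysed here. The part of these markers in the results on LINC genes was not tested. In sorted bulk samples, fewer cells that make an RNA and less of that RNA per cell cannot be told apart.

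The annotated position bore out the word intergenic for most members. In GENCODE 29, 138 of the 168 were typed as lincRNA, and 139 overlapped no protein-coding gene. Another 14 overlapped a protein-coding gene on the same strand and 15 on the other strand only. LINC02693 and LINC00672 were typed as protein coding in that release, and 7 members were transcribed pseudogenes. Chromosome 1 held 28 members. The median member had 3 exons in its longest transcript, which was 2108.5 bases long, against 8 exons and 3685 bases for protein-coding genes with a mean of at least 10. The median GC content was 48.7% against 48.5%.

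The start regions of 4 members past the threshold are shown, 3 that hold a motif searched here and 1 that holds none. They run 5′ to 3′ on the strand of the gene from 250 bases before to 50 bases after the RefSeq start, on GRCh38.p14. LINC01443 (chr18:14946017-14946316, plus strand), LINC01124 (chr2:170714518-170714817, minus strand) and LINC01085 (chr4:14111718-14112017, plus strand) were higher in CD104high. LINC00662 (chr19:27793891-27794190, minus strand) was lower. Capitals mark a match to TGANTCA, the site of AP-1 factors, in LINC01443 and to TGACG, the short CREB site, in LINC01124. In LINC01085 they mark a match to a core of the interferon-stimulated response element, a pair of GAAA repeats. LINC00662 held none of them.
LINC01443: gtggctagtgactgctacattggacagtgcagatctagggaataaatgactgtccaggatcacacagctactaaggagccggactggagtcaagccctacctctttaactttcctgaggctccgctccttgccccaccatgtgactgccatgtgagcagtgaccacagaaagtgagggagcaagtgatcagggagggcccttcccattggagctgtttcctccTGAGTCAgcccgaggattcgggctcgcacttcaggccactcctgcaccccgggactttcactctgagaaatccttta
LINC01124: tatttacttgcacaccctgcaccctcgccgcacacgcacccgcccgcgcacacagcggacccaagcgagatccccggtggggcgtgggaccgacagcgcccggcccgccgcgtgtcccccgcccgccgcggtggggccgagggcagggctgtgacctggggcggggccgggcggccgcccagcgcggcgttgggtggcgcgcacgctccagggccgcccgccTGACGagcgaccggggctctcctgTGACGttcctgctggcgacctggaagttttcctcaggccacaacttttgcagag
LINC01085: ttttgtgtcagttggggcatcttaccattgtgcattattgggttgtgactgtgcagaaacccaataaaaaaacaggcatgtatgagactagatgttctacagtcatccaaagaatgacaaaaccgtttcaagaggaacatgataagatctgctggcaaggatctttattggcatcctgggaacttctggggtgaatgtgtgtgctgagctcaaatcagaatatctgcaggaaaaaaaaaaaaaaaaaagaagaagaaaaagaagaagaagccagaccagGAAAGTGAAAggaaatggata
LINC00662: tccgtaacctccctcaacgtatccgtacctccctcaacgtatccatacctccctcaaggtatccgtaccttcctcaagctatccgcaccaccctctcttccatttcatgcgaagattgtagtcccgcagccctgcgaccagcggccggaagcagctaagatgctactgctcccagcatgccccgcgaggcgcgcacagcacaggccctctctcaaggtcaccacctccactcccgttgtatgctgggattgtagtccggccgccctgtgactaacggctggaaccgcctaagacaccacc

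RefSeq promoters of this kind matched 109 of the 168 members by symbol. Each motif was searched on both strands, and the full CREB site TGACGTCA contains the short one. TGACG occurred in 26 of the 109 (23.9%) and in 24.6% of all 35116 RefSeq promoters. It was in 1 of 18 members higher in CD104high, LINC01124, in 0 of 9 lower ones and in 25 of the 82 others. TGACGTCA occurred in 2 member promoters (1.8%), neither past the threshold, and in 1.8% of all. TGANTCA occurred in 11 (10.1%, against 7.7% of all) and the interferon element in 3 (2.8%, against 3.6%). These are matches of letters, not measured binding.

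A smaller set of sequences belongs to the microRNAs that lie within members. 4 members hosted annotated microRNAs: LINC00472, LINC01505, LINC00461 and LINC01138. Mature sequences are shown for the most abundant member (5p arms only) and for the host that rose, with the seed (bases 2 to 8) in capitals.
hsa-miR-30a-5p (LINC00472): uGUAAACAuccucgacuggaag
hsa-miR-30c-5p (LINC00472): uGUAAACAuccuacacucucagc
hsa-miR-8081 (LINC01505): cUUGAGUCgugccuuucugaaug
The 5p arms of both miR-30 genes in LINC00472 share the seed GUAAACA, and miR-8081 has another. The read counts are of the host genes, and the microRNAs themselves were not measured.

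Of the 167 members tested, 42 (25.1%) passed an adjusted p of 0.05 in limma, against 43.4% of the 14420 genes tested. LINC genes were higher in CD104high in 29 cases (17.4%, against 21.8% of all genes) and lower in 13 (7.78%, against 21.6%). Differences past the threshold reached 1 or more on the log2 scale in 13 rises and 1 fall, or in 10 rises without 3 genes that entered the test through CD104high alone, while 5.84% of all genes tested passed with that size. Leaving those 3 out also gives 26 members higher in place of 29. Quantile normalization moved the balance to 23 higher and 21 lower, and a correction for transcript length and GC content to 39 and 6. In these fits 42.4% and 40.7% of all genes tested were called. The lower count was 5 without CD104high replicate 1, 7 without CD104high replicate 2, 3 without CD104low replicate 1 and 4 without CD104low replicate 3. The total called was then 25 without CD104high replicate 1 and 27 without CD104low replicate 1. The share of all genes called fell as well, from 43.4% to 30.8% without CD104high replicate 1 and 35.2% without CD104high replicate 2. It was 28.4% without CD104low replicate 1 and 33.6% without CD104low replicate 3. The median log2 fold change of members was 0.26 (quartiles -0.16 and 0.71), with 64.9% above 0, while all genes with a mean of at least 10 had a median of 0.02. Quantile normalization put the member median at -0.01 and that of all genes tested at -0.032. By the authors' deposited table, members with an adjusted p under 0.05 numbered 49 (33 higher, 16 lower), against 45.7% of all genes with a value there, and 38 of the 42 called here were among them in the same direction.

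**Figure D1:**
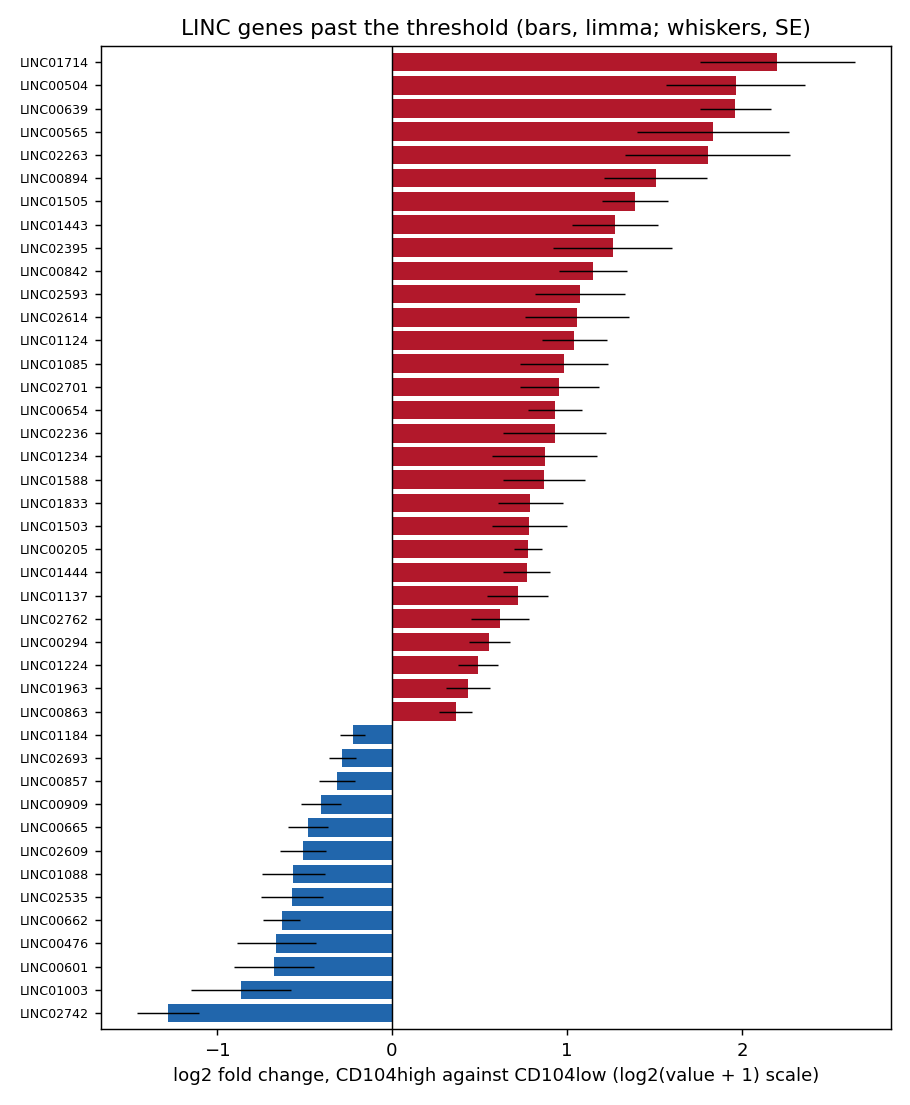
Bars give the limma log2 fold change (CD104high against CD104low, on the log2(value + 1) scale) of the 42 LINC genes past the threshold, with whiskers of 1 SE. The 29 rises include LINC01714, LINC00504 and LINC02263, which entered the test through CD104high alone and so had to differ. LINC01714 has the longest bar, at 2.20. Of the 13 falls, 12 stay within 1 and LINC02742 is at -1.28.

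The groups of 3 did not overlap for 63 members, which was 37.5% of them against 52.7% of all genes of the table. In 46 all CD104high libraries were above (26.7% of all genes) and in 17 all were below (26% of all genes). Among these 63 were 23 that did not pass the threshold. LINC01910 was at 110, 89.1 and 80.1 in CD104high and 49.3, 37.4 and 77.5 in CD104low (log2 fold change 0.81, adjusted p = 0.0517). LINC01123 was at 54, 37.1 and 65.9 against 80.5, 81.9 and 86.5 (-0.69, adjusted p = 0.0532). Both were named after their values were seen, as genes close to the threshold.

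LINC00639 had the smallest adjusted p of all members. It is a spliced lincRNA of chromosome 14 (38749339 to 38948273, GRCh38) whose function is not established. Its CD104high libraries were at 164, 132 and 167 scaled reads and its CD104low libraries at 36.2, 37.4 and 42.7. The lowest CD104high library lay far above the highest CD104low one. The means were 155 ± 19.2 and 38.8 ± 3.44 (SD, n = 3), without overlap (log2 fold change 1.96, 3.9-fold on the fitted scale, SE 0.20, adjusted p = 0.000329). The nearest protein-coding start, that of the COPII coat gene SEC23A, was 161373 bases away, and SEC23A did not pass the threshold (0.11).

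LINC01505, a lincRNA spread over chromosome 9 from 105993310 to 106740875, was at 470, 413 and 572 in CD104high and 144, 210 and 203 in CD104low. Every CD104high library was above every CD104low one. The fold change was 1.39 on the log2 scale (SE 0.19, adjusted p = 0.000848). The nearest coding gene, TMEM38B, encodes an intracellular cation channel and went the other way by -0.90, at a distance of 298766 bases between starts.

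LINC00894 lies on the X chromosome (149938628 to 150224580) and overlaps CXorf40B on the opposite strand. It was at 114, 91.8 and 82.1 in CD104high and at 45.3, 34.4 and 22.5 in CD104low, without overlap. The log2 fold change was 1.51 (SE 0.29, adjusted p = 0.0041). CXorf40B, whose start is 183 bases from that of LINC00894, had a value of -0.38 that did not pass. No source used here states if reads were counted by strand, so those in the shared stretch may be credited to either gene.

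LINC00842 (chromosome 10, 46398362 to 46453306) was at 473, 439 and 382 in CD104high and 200, 148 and 244 in CD104low, again with no overlap. It rose by 1.15 on the log2 scale (SE 0.19, adjusted p = 0.00206). ANXA8L1, a gene for a calcium-dependent phospholipid-binding annexin whose start is 22735 bases away, was higher by 2.48 (adjusted p = 0.000561). This region holds near-identical copies of the annexin A8 genes, so reads can be divided between copies there.

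LINC01443 and LINC01444 are neighbours on chromosome 18 that overlap on opposite strands (14946267 to 14974215 and 14969001 to 14970468). LINC01443 was at 246, 196 and 168 in CD104high and 82.5, 110 and 61.8 in CD104low (log2 fold change 1.27, SE 0.25, adjusted p = 0.00386). LINC01444 was at 844, 714 and 693 against 471, 373 and 477 (0.77, SE 0.13, adjusted p = 0.00243). Neither pair of groups overlapped. With the strand of counting unknown, these are not independent readings in the stretch they share. Per kilobase of the longest transcript, LINC01444 was the third most abundant member, with a mean of 779.

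Besides LINC00639, the members with the largest fold changes had few reads. LINC01714 was at 18.3, 22.1 and 26.4 in CD104high and at 3.02, 3.03 and 6.74 in CD104low (log2 fold change 2.20, SE 0.44, adjusted p = 0.00465). The CD104low values stand for 3, 3 and 6 reads. LINC00504 was at 16.5, 17.7 and 24.3 against 4.02, 4.04 and 4.49, which are 4 reads in each CD104low library (1.96, SE 0.40, adjusted p = 0.00488). LINC02263 was at 17.4, 15.9 and 18.2 against 6.03, 2.02 and 5.62 (1.80, SE 0.47, adjusted p = 0.015), and without CD104high replicate 1 it did not pass. These 3 genes had no CD104low library at 10 or more, so they entered the test through CD104high alone and had to differ, and they are given as a description. LINC00313 entered in the same way and did not pass.

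LINC00565 and LINC00452 lie 3002 bases apart on chromosome 13. LINC00565 was at 23.8, 43.2 and 24.3 in CD104high but 5.03, 12.1 and 6.74 in CD104low. It rose by 1.83 (SE 0.44, adjusted p = 0.00975). LINC00452 was more abundant, at 354, 450 and 219 against 387, 529 and 359, and its groups overlapped (-0.36, adjusted p = 0.295). In both genes and both populations replicate 2 had the highest value.

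Other rises of at least 1 on the log2 scale were LINC02395 (1.26), LINC02593 (1.07), LINC02614 (1.06) and LINC01124 (1.04). LINC01124 was at 158, 173 and 155 in CD104high and 88.5, 64.7 and 83.1 in CD104low (SE 0.19, adjusted p = 0.00275). It starts 784 bases from SP5, a Wnt-responsive transcription factor gene read in the opposite direction, which stood at 0.06 and did not pass. Calls of 2 of them depended on the processing or on single libraries. LINC02614 lost its call with quantile normalization and without CD104high replicate 1 or CD104low replicate 1 or 3, and LINC02395 without CD104high replicate 3 or CD104low replicate 1.

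LINC00205 combined a high level with a small spread. This bidirectional promoter RNA of chromosome 21 (45288050 to 45297806) was at 2903, 2897 and 3028 in CD104high and 1572, 1878 and 1706 in CD104low. The means were 2943 ± 74.3 and 1718 ± 153 (SD, n = 3). The log2 fold change was 0.78 (1.72-fold on the fitted scale, SE 0.08, adjusted p = 0.00035). All CD104high libraries were above all CD104low ones. Its start is 152 bases from that of POFUT2, which encodes a protein O-fucosyltransferase and is read in the opposite direction, and POFUT2 was higher by 0.46 (adjusted p = 0.00319).

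LINC00654 was at 489, 435 and 391 in CD104high and 196, 225 and 270 in CD104low (0.93, SE 0.16, adjusted p = 0.00206). LINC01224 was at 1276, 1085 and 1347 against 988, 806 and 841 (0.49, SE 0.12, adjusted p = 0.00948). Neither gene's groups overlapped. LINC01503, described in squamous carcinoma as a target of TP63, was at 120, 105 and 107 against 55.3, 80.9 and 57.3 (0.79, SE 0.22, adjusted p = 0.018), and it lost its call with quantile normalization and without CD104high replicate 1 or CD104low replicate 1 or 3. LINC01234 passed narrowly, at 114, 139 and 140 against 48.3, 64.7 and 112 (0.87, SE 0.30, adjusted p = 0.0426), and did not pass in 9 of 18 alternative fits.

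**Figure D2:**
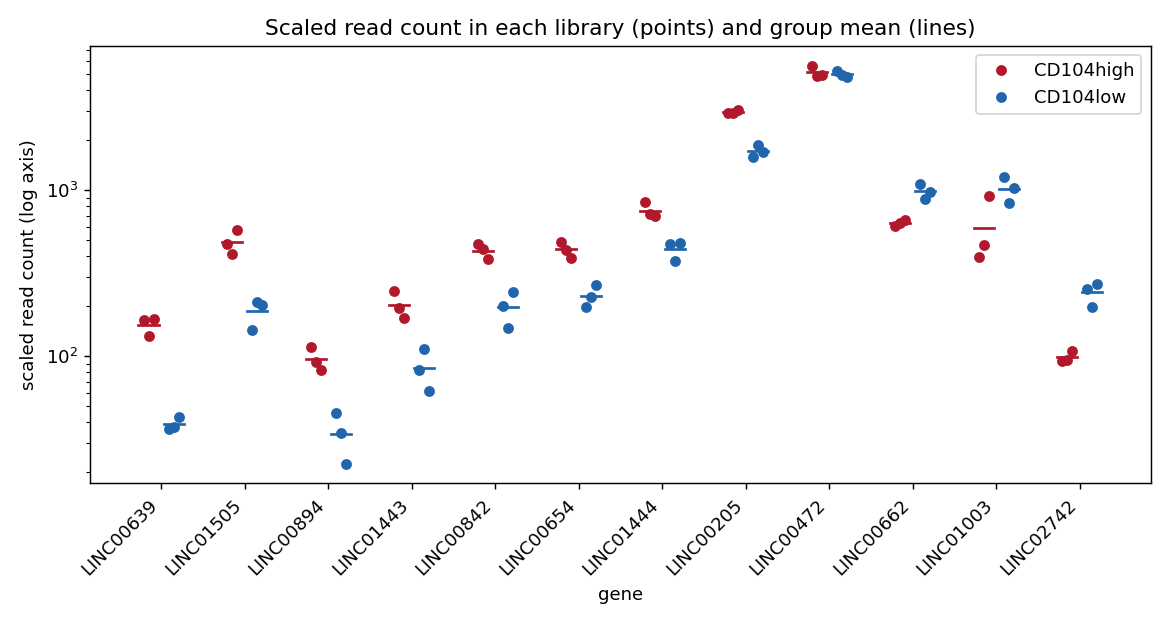
Points give the scaled read count (log axis) of each library for 12 LINC genes, red for CD104high and blue for CD104low, and lines give the mean of 3. LINC00639 and LINC00205 show a clear gap between populations, LINC00472 overlaps, and LINC01003 has 1 CD104high library, at 917, within the CD104low range.

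LINC02742 had the largest fall. It is a lincRNA of chromosome 11 (28702615 to 29063821) that lies far from any coding start. It was at 93.4, 94.4 and 106 in CD104high and 254, 197 and 273 in CD104low. The means were 98.1 ± 7.27 and 241 ± 39.5 (SD, n = 3), without overlap (log2 fold change -1.28, SE 0.18, adjusted p = 0.000917).

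LINC00662, a lincRNA of chromosome 19 (27684580 to 27793940) studied in several carcinomas as a growth-promoting RNA, was at 603, 635 and 662 in CD104high and 1094, 885 and 970 in CD104low. All CD104high libraries lay below all CD104low ones. The log2 fold change was -0.63 (SE 0.11, adjusted p = 0.00207). LINC00665, which has been reported to encode a micropeptide in triple-negative breast cancer, was at 405, 405 and 347 against 557, 498 and 555 (-0.48, SE 0.12, adjusted p = 0.0107), also without overlap. LINC02742, LINC00662 and LINC00665 were the only members called lower that kept the call in all 18 alternative fits.

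LINC01003 starts 27781 bases from KMT2C, the gene deleted in these cells, and is read away from it (chromosome 7, 152463786 to 152465549). It was at 395, 468 and 917 in CD104high and 1197, 831 and 1029 in CD104low. CD104high replicate 3 lay within the CD104low range. The log2 fold change was -0.86 (SE 0.28, adjusted p = 0.0366), and KMT2C itself had 0.62 (SE 0.11, adjusted p = 0.0027). The call of LINC01003 was lost in 7 of 18 alternatives, among them edgeR (adjusted p = 0.0507) and DESeq2 (0.094). It was lost without CD104high replicate 1 (adjusted p = 0.126) or 2 (0.102) and without CD104low replicate 1 (0.134) or 3 (0.0822).

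The other 9 falls were smaller than those of LINC02742 and LINC01003, and their calls depended on single libraries. LINC00601 was at 39.4, 31.8 and 40.6 in CD104high and 59.3, 63.7 and 56.2 in CD104low (-0.67, SE 0.23, adjusted p = 0.0425), and leaving out any 1 of the 6 libraries ended the call. LINC00476 was at 115, 99.7 and 167 against 218, 163 and 216, with overlap (-0.66, SE 0.23, adjusted p = 0.0423). LINC01088 was at 194, 282 and 254 against 338, 315 and 425 (-0.56, SE 0.18, adjusted p = 0.033), while the authors' deposited table gives it an adjusted p of 0.326. LINC02535 (-0.57), LINC02609 (-0.51), LINC00909 (-0.41), LINC00857 (-0.31) and LINC02693 (-0.28) completed the group with LINC01184. Without CD104low replicate 1 or without CD104low replicate 3, each of these 9 genes, LINC00601 included, fell short of the threshold.

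LINC01184, which starts 594 bases from SLC12A2, the gene of the sodium-potassium-chloride cotransporter NKCC1, was at 1374, 1357 and 1389 in CD104high and 1676, 1568 and 1570 in CD104low (-0.22, SE 0.07, adjusted p = 0.0339). SLC12A2, read in the opposite direction, was lower by -0.34 (adjusted p = 0.00343). The length and GC correction turned LINC01184 to 0.09 (adjusted p = 0.317). Members called lower had a median GC content of 43.2%, those called higher 49.5% and the others 48.6%.

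The most abundant member did not pass the threshold. LINC00472, described as a tumour suppressor RNA in breast cancer and the host of miR-30a and miR-30c-2, was at 5606, 4888 and 4936 in CD104high and 5189, 4965 and 4802 in CD104low. The groups overlapped throughout (0.04, SE 0.07, adjusted p = 0.664). With 1712 scaled reads per kilobase of its longest transcript it also led the members per length, followed by LINC00888 with 785 and LINC01444. LINC02009, also among the 5 most abundant by mean level, was at 1664, 1796 and 2037 against 1433, 1479 and 1734 (0.24, SE 0.11, adjusted p = 0.0926).

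Of 13 LINC genes listed for their study in cancer or in cAMP signalling, 5 were members, and LINC00662 and LINC00857 are given above. LINC00511, a cancer-associated RNA of chromosome 17, was at 242, 156 and 313 in CD104high and 158, 89 and 166 in CD104low, with overlap (0.78, SE 0.31, adjusted p = 0.0716). It passed in DESeq2 (adjusted p = 0.0278), in the authors' deposited table (0.0133) and without CD104high replicate 2 (1.05, adjusted p = 0.026). LINC00467, reported to encode a mitochondrial micropeptide, was at -0.05 (adjusted p = 0.821), and LINC00460 at 0.19 (adjusted p = 0.594). LINC00473, a known cAMP-induced RNA, was not analysed here.

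The members' excess of rises lay among genes of low and middle level, and protein-coding genes of the same level had it too. At a mean of 10 to 50, the median log2 fold change was 0.30 for 73 members, 0.31 for 1272 protein-coding genes and 0.20 for 369 other lncRNA genes. At 50 to 200, the medians were 0.29 for 59 members and 0.30 for 1272 protein-coding genes, and 0.04 for 217 other lncRNA genes. At 200 or more, they were -0.01 for 36 members, -0.03 for 10576 protein-coding genes and -0.06 for 179 other lncRNA genes. The share called in these ranges was 9.72%, 23.7% and 58.3% of members tested and 13.7%, 33% and 51.1% of protein-coding genes. With quantile normalization the medians of the lower ranges came to 0.00 and 0.05 for members and to -0.00 and 0.03 for protein-coding genes, so neither direction held under that scaling. After the length and GC correction they were 0.41 and 0.41 for members and 0.30 and 0.29 for protein-coding genes. No test of members against coding genes was made.

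**Figure D3:**
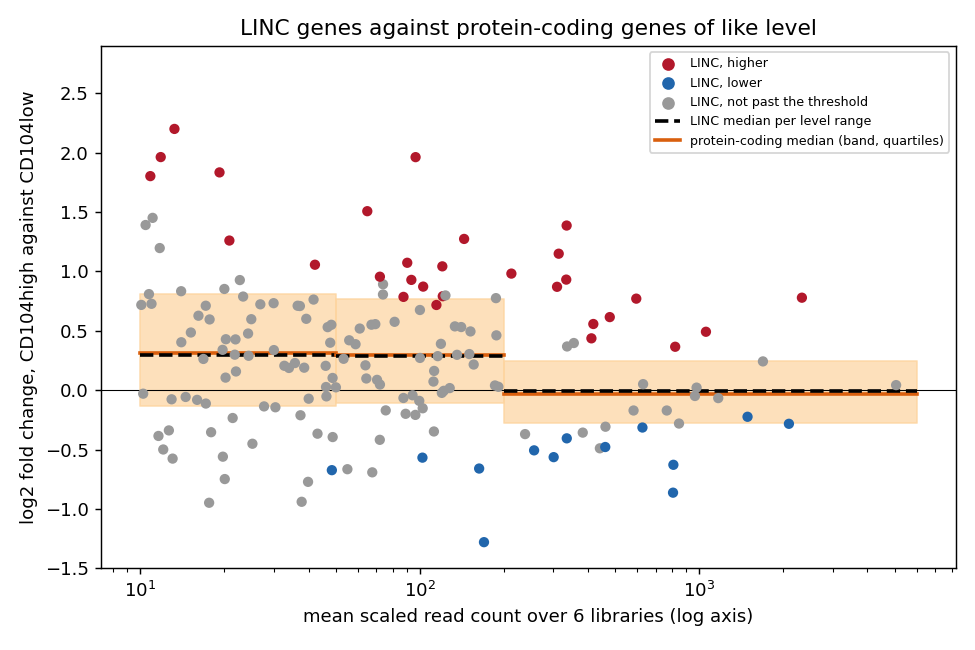
Each point is a LINC member, and LINC01829 is included though it was not tested. The x axis gives the mean scaled read count over 6 libraries (log axis) and the y axis the log2 fold change. Dashed lines are the LINC medians and orange lines and bands the medians and quartiles of protein-coding genes in 3 level ranges, and the medians of both lie almost on each other (0.30 and 0.31, 0.29 and 0.30, -0.01 and -0.03).

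The median coefficient of variation of members between replicates was 18.2% in CD104high and 19.8% in CD104low, against 9.71% and 9.92% in other genes, most of which had higher levels. The median SE of the log2 fold change was 0.38 for members and 0.40 for protein-coding genes at a mean of 10 to 50. It was 0.24 and 0.23 at 50 to 200, and 0.12 and 0.09 at 200 or more. With an intensity trend, limma draws the SEs of genes of like level towards each other, so they do not measure spread directly. Of the 168 members, 102 had a mean under 100 and 7 one of at least 1000. Members together took 0.0745%, 0.0719% and 0.0734% of the listed reads in CD104high and 0.0677%, 0.0651% and 0.0656% in CD104low. The populations did not overlap in this share. The 5 most abundant members held 32.5 to 34.7% of the member reads in each library.

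Members were also set beside their nearest coding genes. For 130 members with a tested nearest protein-coding gene, Spearman's rho between the log2 fold changes was 0.12 across genes, and 59.2% of the pairs had the same sign. The 130 pairs shared 123 neighbours and all 6 libraries. Among the 32 pairs with starts within 10000 bases rho was 0.04. Pairs of neighbouring protein-coding genes had a rho of 0.12 over all 13159 pairs and of 0.19 over the 3787 within 10000 bases. Each of these pairs is a tested coding gene with its nearest tested coding gene, so mutual neighbours entered from both sides. For members the nearest of all annotated coding genes was taken, and members with an untested one were left out, so the pairs are not strictly alike. Of the 37 members past the threshold with a tested neighbour, 18 (48.6%) had a neighbour past it, where 43.4% of all genes tested passed, so this share lay near the background. The direction was the same in 13 of the 18, or in 11 of 16 without the members that entered the test through CD104high alone. Of all members called, 69% were higher. No share of equal signs was computed for pairs of coding genes, so the counts of equal direction have no background here.

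Among those 13, LINC00205 with POFUT2 and LINC01184 with SLC12A2 shared a divergent start region. They were the only 2 of the 13 pairs with starts within 10000 bases. LINC02701 (0.96) rose with CPT1A (0.84), the carnitine palmitoyltransferase of mitochondrial fatty acid oxidation. LINC01088 fell with PAQR3 (-0.79), whose start is 32310 bases away. LINC02535 fell with NT5E (-0.46), which encodes the ectonucleotidase CD73 and starts 59398 bases away. In the opposite case, LINC00909 fell while ZNF407, whose start is 638 bases away, was higher by 0.29. LINC00909 overlaps ZNF407 on the other strand. With the strand of counting unknown, reads in the shared stretch may be credited to either gene. LINC01547 and FAM207A, whose divergent starts are 97 bases apart, had values of 0.80 (adjusted p = 0.0557) and -0.46 (adjusted p = 0.0304), and only the second passed.

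**Figure D4:**
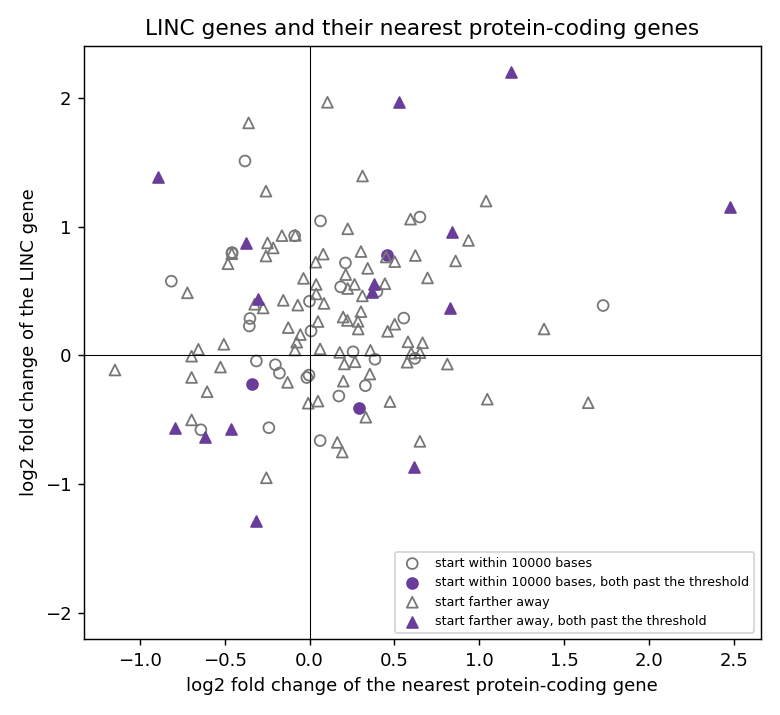
Each of 130 points is a LINC gene (y axis, log2 fold change) with its nearest protein-coding gene (x axis, log2 fold change). Circles mark starts within 10000 bases, triangles longer distances, and filled symbols pairs in which both genes passed the threshold. The points scatter over all 4 quadrants, and the filled ones number 18, of which 13 have equal signs.

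Other noncoding genes were counted for comparison. Other lncRNA genes with a mean of at least 10 numbered 765, of which 760 were tested. Of these, 19.9% passed, against 43.4% of all genes tested. There were 80 rises (10.5%, against 21.8% of all genes tested) and 71 falls (9.34%, against 21.6%). The median log2 fold change was 0.09. Their median level was 54.7, against 1336 for all genes with a mean of at least 10. In the level ranges of 10 to 50, 50 to 200 and 200 or more, 7.97%, 24% and 39.1% passed. Of protein-coding genes in these ranges, 13.7%, 33% and 51.1% passed. Of 329 tested symbols ending in -AS and a digit, 18.5% passed. They had 32 rises (9.73%, against 21.8% of all genes tested) and 29 falls (8.81%, against 21.6%). Quantile normalization gave 17 rises and 39 falls, while the length and GC correction gave 53 rises and 19 falls. Among the rises were DBH-AS1 (1.49) and IGFL2-AS1 (2.98), and among the falls THAP9-AS1 (-0.67) and OTUD6B-AS1 (-0.69). Of 37 well-known lncRNAs listed, 23 were tested, of which 6 rose and 5 fell (47.8% in all, near the 43.4% of all genes, median 0.12). NORAD, which sequesters Pumilio proteins, was at 34150, 34790 and 34934 in CD104high and 24478, 25930 and 24905 in CD104low, and its log2 fold change of 0.46 had an adjusted p of 0.000527. DANCR fell by 0.82 on the log2 scale and ZFAS1 by 0.80.

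Genes of the machinery that removes or ends such transcripts were counted as well. Of 22 listed genes of the RNA exosome, not all of them limited to its nuclear form, and its adaptors, 15 were lower and 1 higher in CD104high. Their median was -0.35, and 21.6% of all genes tested were lower. EXOSC8 (-0.71) and EXOSC3 (-0.75) are subunits of the exosome ring and cap. NRDE2, a partner of the exosome helicase MTREX, was the gene that rose (0.26), and it turned to -0.08 after the length and GC correction, where no gene of this list was higher and 12 were lower. Of 14 Integrator genes, whose complex cleaves nascent noncoding transcripts, 4 were lower (28.6%, against 21.6% of all genes tested) and 1 higher (7.14%, against 21.8%). Their median was -0.12, and 35.7% passed in either direction, against 43.4% of all genes tested. Among 14 genes of cAMP and CREB signalling, 8 were higher (57.1%, against 21.8% of all genes tested) and 1 lower (7.14%, against 21.6%), with a median of 0.42. Those with the smallest p in each direction were FOS at 1.42, PDE7B at 0.78 and CREM at -0.92. The exosome, Integrator and cAMP medians kept their signs with quantile normalization, TMM scaling and the length and GC correction. Their relation to the members' values was not tested.

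At the edge of the rule, LINC00629 and LINC02028 lay just below a mean of 10, at 9.94 and 9.98, and LINC01829 and LINC00628 just above it, at 10.09 and 10.24. LINC01829 was the 1 member not tested, because fewer than 3 libraries reached 10. It was at 19.22, 14.12 and 6.08 in CD104high and 5.03, 7.08 and 8.98 in CD104low.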

How the data were processed

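RNA sequencing was done on 6 sorted samples, 3 per population. FastQC, Salmon 1.3.0, DESeq2 and the build GRCh38 (hg38) appear in the submitters' processing notes. Per the file headers, the authors deposited a scaled read signal per gene and library, a log2 fold change with its standard error, and a p-value before and after adjustment. In each library 100% of the signal values were whole multiples of 1 step within 0.01, so reads were recovered by division. If Salmon made them, they are rounded estimates. No source used here gives the annotation release, the filters or the model formula.

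Populations were compared by limma 3.58.1 (R 4.3.3, intensity trend) on log2(value + 1), for the 14420 genes that reached 10 in 3 or more samples. The model held population alone, with Benjamini-Hochberg adjustment over all genes tested and a threshold of 0.05. Fold changes on that scale understate the change of low genes. The labels name biological replicates 1 to 3 and no culture or day, so the p-values reflect only how these samples vary, which may be technical. edgeR 4.0.16 and DESeq2 1.42.0 on the recovered reads were alternatives. The pipeline was tested on simulated data.

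Named members were the 12 largest rises and 12 largest falls past the threshold, the 5 highest means, those next to the mean of 10, and 13 listed symbols where they were members. Other members were named after their values were seen. The members and lists were chosen with earlier results of these data known. Positions, types, length and GC content came from GENCODE 29, using the longest transcript. Start regions and microRNAs came from RefSeq (GRCh38.p14), and a start region was shown only where its start lay within 1000 bases of the GENCODE start.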

Additional observations from a re-analysis of the deposited data

How the results depend on the processing

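The counts of 42 members called, 29 higher and 13 lower, were recomputed in 18 alternative fits and with a minimum mean of 20 or 50 in place of 10. The number lower was 21 with quantile normalization, 6 after the length and GC correction and 21 with the replicate number as a block. In that block fit 63 were called, 42 of them higher, and 54.6% of all genes. Same-numbered samples deviated together with correlations of 0.084, 0.359 and 0.324 for replicates 1, 2 and 3, and every sample correlated best with its own number, but the labels do not say that a number marks a shared culture, so the pairing is a hint from the data. Leaving out 1 library gave 25 to 45 members called, 20 to 31 higher and 3 to 15 lower. Without CD104high replicate 1 there were 25 called and 5 lower, and without CD104low replicate 1 there were 27 and 3. The lower count was 7 without CD104high replicate 2 and 4 without CD104low replicate 3. The share of all genes called fell as well, to 28.4% without CD104low replicate 1. The cause was not tested.

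Of the 42 members, 20 (17 higher, 3 lower) kept their call in every alternative fit that gave them a value. Without the members that entered the test through CD104high alone, an alternative chosen after seeing the data, 39 of 163 were called (26 higher, 13 lower), and 18 (15 higher) kept the call throughout. Signs turned for members near 0. LINC00460 was at -0.10 with quantile normalization, and LINC00467 at 0.04 after the length and GC correction. LINC00628 was at 0.12 after that correction, 0.04 in edgeR and in DESeq2, and 0.05 by the authors' deposited table. Leaving out 1 library gave -0.22 to 0.10 for LINC00467, -0.02 to 0.08 for LINC00472, -0.27 to 0.28 for LINC00628 and -0.07 to 1.02 for LINC01638. LINC01184 was at 0.09 and NRDE2 at -0.08 after the length and GC correction. The cause was not tested. Reads on 102 members with a mean under 100 limit what could be detected.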

Other observations

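LINC01638, chosen after its values were seen, varied more with the replicate number than with the population. It was at 195, 109 and 324 in CD104high and 133, 65.7 and 301 in CD104low, so that replicate 2 was lowest and replicate 3 highest in both (log2 fold change 0.46, SE 0.54, adjusted p = 0.522). The same replicate number held the highest value in both populations in 61 of the 168 members (36.3%), against 46.4% of all genes with a mean of at least 10. It held the lowest in 78 members (46.4%), against 47.5%.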
